A study of Mus musculus with 7 samples.

Results

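The genes described here are 10 transcription factors that form the regulatory core of blood stem cells: Gata2, Tal1, Lmo2, Lyl1, Erg, Fli1, Runx1, Hlf, Mecom and Prdm16. They were chosen by symbol, all 10 were found among the 28786 genes of the count table, and all 10 were among the 14226 genes that passed the low-count filter. Their transcripts were measured by RNA sequencing in cells sorted as haematopoietic stem cells (HSCs) from the marrow of C57BL/6J mice aged 6 to 8 weeks, with 1500 sorted cells per library. The MC38 group (4 libraries) came from mice with MC38 colon cancer, MC38 being a transplantable colon carcinoma line of the same strain. The control group came from normal mice and has 3 columns, of which the first and second (n = 2) were used. The labels give neither the sex of the mice, the site and age of the tumours, the sort gates nor any pooling of animals. They also do not tie libraries to animals, so the p-values below rest on library-to-library spread, part of which may be technical.

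Most of these factors act together. GATA2, a zinc finger protein, TAL1 and LYL1, which are related basic helix-loop-helix proteins, LMO2, a LIM-domain bridging protein, the ETS factors ERG and FLI1, and RUNX1 occupy many of the same enhancers in blood progenitors, including enhancers of one another. TAL1 or LYL1 binds E-box letters as a partner of an E protein, and LMO2 with LDB1 bridges that pair to GATA2. HLF, a leucine zipper factor of the PAR family, and MECOM and PRDM16, which are related zinc finger proteins with a PR domain, are known for keeping HSCs quiescent and self-renewing. Loss of Gata2, Erg, Mecom or Prdm16 depletes or impairs HSCs in mice.

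The libraries held 14964782, 14517636, 17657037 and 13368238 counts in MC38 and 12131546 and 12306066 in control. Control column 3 is made of whole numbers too, but they follow the sum of the other controls. For the 10 factors its value was 0.349 to 0.358 of that sum, inside the range of 0.341 to 0.371 that held 95% of 9652 well counted genes, and it was left out as not independent. The HSC label was set beside 16 stem and progenitor markers, all of which had counts and none of which was called by edgeR (3 at an unadjusted p under 0.05). Every MC38 library was above both controls in 5 of the 16 and below both in 1. Of all tested genes, 29.0% were separated in either direction. Procr, the endothelial protein C receptor that marks HSCs, was at 98.9, 97.2, 87.1 and 87.0 CPM (counts scaled to a common library total) in MC38 and at 81.4 and 84.8 CPM in control. Ly6a had the smallest p of the 16 (168 ± 8.16 CPM in MC38, 107 ± 18.5 CPM in control, edgeR adjusted p = 0.0522). Also at an unadjusted p under 0.05 were Vwf, which was lower in MC38, and Cd27, which was higher. Vwf was the marker below both controls in every MC38 library (86.6 ± 15.6 CPM in MC38, 123 ± 2.99 CPM in control, edgeR adjusted p = 0.162). Cd27 was at 154 ± 19.8 CPM in MC38 and 111 ± 20.2 CPM in control (edgeR adjusted p = 0.182). Cd34 averaged 198 CPM in MC38 and 219 CPM in control, and Flt3 130 and 112 CPM. Since the list mixes stem and progenitor markers, counts of all 16 do not show that the samples held HSCs alone. Neutrophil transcripts were abundant as well: the 14 neutrophil markers summed to 57106 to 65617 CPM in MC38 and 32693 to 33440 CPM in control. Of the 14, 8 were called higher, Ngp, Retnlg, Mmp8 and S100a9 among them, and 1 lower, Mpo. The log2 fold changes were positive for 10 and negative for 4 (Mpo, Prtn3, Elane and Ctsg). Every MC38 library was above both controls in 10 of the 14 and below both in 3 (Mpo, Elane and Prtn3). Of 10 B cell markers 2 were called higher (Ighm and Igkc). Of 12 T and NK cell markers none was called (5 at an unadjusted p under 0.05, all higher in MC38). Their log2 fold changes were positive for 10 and negative for 2, with a median of 0.91. Every MC38 library was above both controls in 6 of these 12 and below both in 1. Of 11 macrophage and dendritic cell markers 2 were called higher. They were Siglech (68.8 CPM in MC38, 29.4 CPM in control) and C1qa. C1qa averaged 4.31 CPM in MC38 and was close to no counts in control, at 0.084 and 0.248 CPM. Bulk counts cannot tell fewer cells of a type from less RNA per cell, so every level below is that of the sorted sample as a whole.

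RefSeq start sites were available for 8 of the factors in 14 windows of 300 bases, 250 before and 50 after each start (GRCm38.p6, the assembly of mm10). Windows are shown for Gata2 and Lyl1, the factors whose groups did not overlap, for Runx1, the factor whose window held RUNX letters, and for Mecom and Prdm16, which shared a run of bases. Capitals mark the letters GATAA (GATA factors), CANNTG (E-box), GGAAG (ETS factors) and TGTGGT (RUNX), searched on both strands, with no overlap between matches in these windows.
Gata2, upstream start, chr6:88193641-88193940, plus strand: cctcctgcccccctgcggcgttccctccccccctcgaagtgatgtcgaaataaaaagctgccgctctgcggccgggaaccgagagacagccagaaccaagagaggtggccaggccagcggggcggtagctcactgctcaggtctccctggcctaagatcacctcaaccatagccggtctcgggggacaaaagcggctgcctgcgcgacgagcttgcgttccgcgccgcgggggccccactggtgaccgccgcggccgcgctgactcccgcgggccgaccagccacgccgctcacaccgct
Gata2, downstream start, chr6:88198414-88198713, plus strand: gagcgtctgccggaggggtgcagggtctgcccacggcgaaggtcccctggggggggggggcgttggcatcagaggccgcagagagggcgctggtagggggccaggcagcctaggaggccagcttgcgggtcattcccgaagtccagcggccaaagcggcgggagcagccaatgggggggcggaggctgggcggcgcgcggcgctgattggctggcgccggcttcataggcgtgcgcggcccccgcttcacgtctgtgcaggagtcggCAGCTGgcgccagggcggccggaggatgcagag
Lyl1, chr8:84701207-84701506, plus strand: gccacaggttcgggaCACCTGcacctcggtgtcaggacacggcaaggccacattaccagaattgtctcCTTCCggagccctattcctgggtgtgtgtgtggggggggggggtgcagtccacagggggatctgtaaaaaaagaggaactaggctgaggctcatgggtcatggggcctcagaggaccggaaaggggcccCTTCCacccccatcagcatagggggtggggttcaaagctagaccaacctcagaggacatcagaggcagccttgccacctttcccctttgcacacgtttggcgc
Runx1, upstream start, chr16:92826025-92826324, minus strand: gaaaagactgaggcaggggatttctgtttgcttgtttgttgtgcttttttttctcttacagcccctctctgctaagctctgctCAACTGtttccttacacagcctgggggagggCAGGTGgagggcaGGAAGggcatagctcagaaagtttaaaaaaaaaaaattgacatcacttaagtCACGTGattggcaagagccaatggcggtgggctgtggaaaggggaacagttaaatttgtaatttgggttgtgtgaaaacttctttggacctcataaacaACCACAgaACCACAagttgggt
Mecom, upstream start, chr3:30509710-30510009, minus strand: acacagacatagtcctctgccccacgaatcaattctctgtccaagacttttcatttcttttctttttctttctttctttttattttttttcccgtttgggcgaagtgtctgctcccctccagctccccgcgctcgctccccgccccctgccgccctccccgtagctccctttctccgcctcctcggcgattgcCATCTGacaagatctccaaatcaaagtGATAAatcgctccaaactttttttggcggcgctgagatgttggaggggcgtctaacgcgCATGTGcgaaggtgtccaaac
Prdm16, chr4:154636824-154637123, minus strand: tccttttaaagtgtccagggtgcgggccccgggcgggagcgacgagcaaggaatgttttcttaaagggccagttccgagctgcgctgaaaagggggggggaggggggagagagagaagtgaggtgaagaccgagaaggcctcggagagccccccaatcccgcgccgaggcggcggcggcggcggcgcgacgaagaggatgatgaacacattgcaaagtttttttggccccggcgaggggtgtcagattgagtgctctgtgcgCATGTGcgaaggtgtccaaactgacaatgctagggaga

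The upstream Gata2 window held none of the 4 motifs and the downstream window held 1 E-box. The Lyl1 window held 1 E-box and 2 ETS matches, and the upstream Runx1 window held 3 E-boxes, 1 ETS match and 2 adjacent RUNX matches. Over the 14 windows, GATAA was found in 4, CANNTG in 8, GGAAG in 7 and TGTGGT in 1. Among all 32851 windows of the same length the shares were 25.4%, 72.3%, 71.4% and 16.8%. The upstream Mecom window and the Prdm16 window shared the run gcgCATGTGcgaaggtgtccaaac, 24 bases with 1 E-box, which begins at base 27 from the Mecom start and base 10 from the Prdm16 start. No other window among the 32851 held it as written, its reverse complement not being searched. It reaches the end of the Mecom window, so the match may be longer. These letters are a description of the windows and say nothing of binding.

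None of the 10 factors passed the test of MC38 against control (edgeR quasi-likelihood test, Benjamini-Hochberg adjusted p under 0.05), while 1.61% of all tested genes did, 1.04% higher and 0.569% lower in MC38. At an unadjusted p under 0.05 there was 1 factor, Gata2, against 17.5% of all tested genes. The log2 fold changes were negative for 6 factors and positive for 4, between -0.50 for Gata2 and 0.33 for Erg, with a median of -0.03 against 0.01 over all tested genes. None reached a 1.5-fold change, which 28.8% of tested genes did. That share is not matched for level: it is over all 14226 tested genes, of which 7330 had a mean of at least 20 CPM, as all 10 factors did. Summed over the 10 factors the level was 1948, 1948, 2157 and 2173 CPM in MC38 libraries and 2064 and 2175 CPM in control libraries. Control replicate 1 was inside the MC38 range and control replicate 2 just above it. In 2 of the 10, Gata2 and Lyl1, every MC38 library was below both controls, and 15.0% of all tested genes were separated in that direction, with 29.0% in either direction. The 95% intervals, which are not adjusted for the number of genes, leave room for changes either way: for Mecom the interval ran from 0.64-fold to 1.48-fold.

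**Figure D1:**
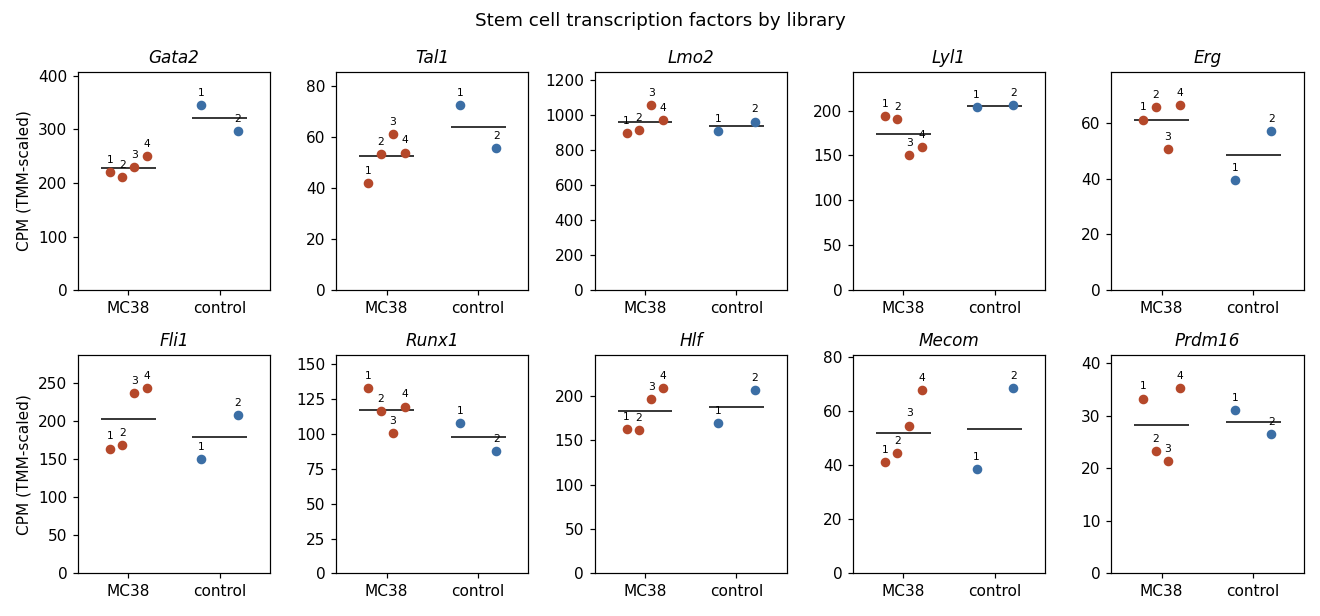
Level of each of the 10 factors in every library, in CPM scaled by TMM, with MC38 libraries left and control libraries right. Points carry the replicate number, black bars are group means, and each panel has its own axis from 0. The MC38 and control points are apart for Gata2 and Lyl1 and overlap for the other 8 factors.

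**Figure D2:**
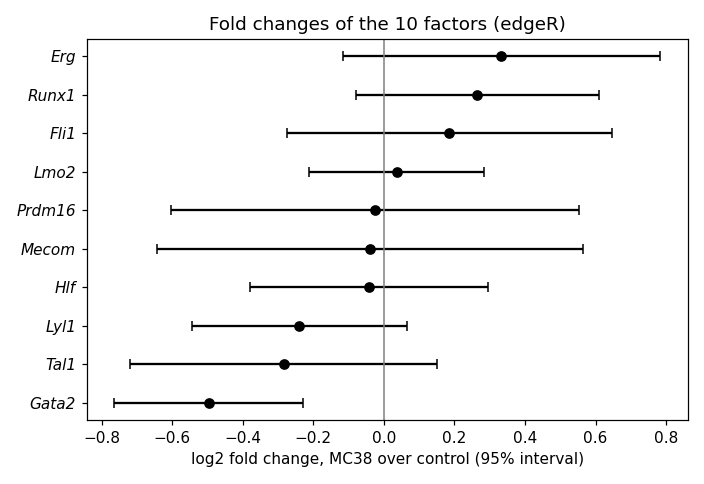
log2 fold change of MC38 over control for each factor from edgeR (points) with the unadjusted 95% interval (bars). Gata2, at -0.50, is the factor whose interval lies wholly below 0, and its adjusted p was 0.0726.

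Gata2, the zinc finger factor needed for HSC survival, had the lowest p of the set. Its gene (ENSMUSG00000015053) lies on the plus strand of chromosome 6, from 88193891 to 88207032 (mm10). It was at 221, 211, 229 and 249.9 CPM in MC38 libraries and at 345 and 297 CPM in control libraries. Every MC38 library was below both controls, and the gap between the nearest libraries of the groups was wider than the range within MC38 and close to the distance between the controls. The means were 228 ± 16.6 CPM in MC38 and 321 ± 33.9 CPM in control (SD, n = 4 and 2). The log2 fold change was -0.50 (SE 0.12, 95% interval -0.76 to -0.23), or 0.709-fold, and the adjusted p of 0.0726 missed the threshold. DESeq2 gave the same size and an adjusted p of 0.00561, while limma-voom gave 0.0874. DESeq2 called 7.18% of all tested genes and limma-voom 1.27%, and Gata2 was the 1 factor called by DESeq2. The fit of all 7 columns called 10.6% of its genes, that with the replicate number as a block 3.23% and that with no low-count filter 2.35%. Over the 6 fits that leave out 1 library the log2 fold change stayed negative, from -0.60 to -0.38, with adjusted p from 0.0674 to 0.397, the highest without control replicate 1.

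**Figure D3:**
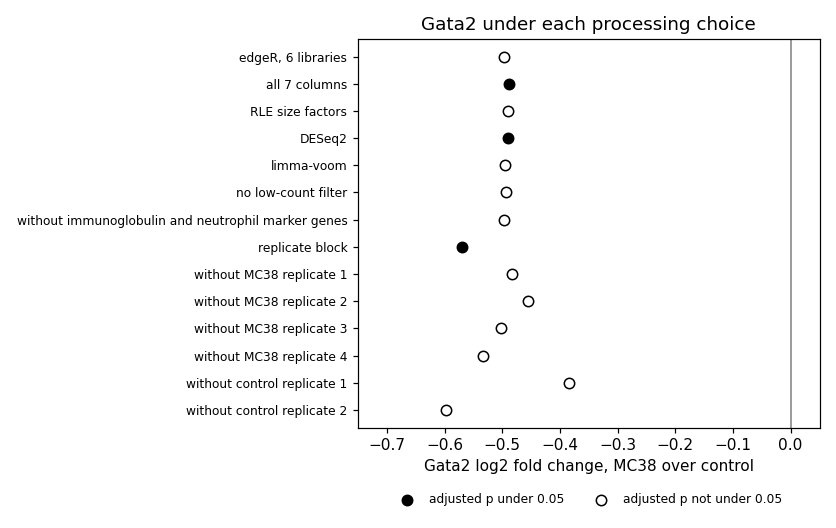
log2 fold change of Gata2, MC38 over control, in the edgeR fit of 6 libraries (top) and 13 other processing choices. Filled points have an adjusted p under 0.05, which was reached with all 7 columns, with DESeq2 and with the replicate block, and every point lies between -0.60 and -0.38.

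Gata2 is also used by mast cells, basophils and megakaryocyte and erythroid precursors, whose markers are given here beside it. The 11 mast cell and basophil markers summed to 234 to 249.2 CPM in MC38 and 205 to 229.8 CPM in control. Hdc, the histamine-forming enzyme, rose (183 ± 13.3 CPM in MC38, 76.3 ± 3.49 CPM in control, edgeR adjusted p = 0.00105). The basophil protease gene Mcpt8 fell (7.70 ± 1.29 CPM in MC38, 31.9 ± 0.13 CPM in control, edgeR adjusted p = 0.00444), and so did Prg2, the eosinophil major basic protein (edgeR adjusted p = 0.0256). Ms4a2 and Mcpt4 had no count in any of the 6 libraries. The 9 megakaryocyte markers summed to 305 to 378 CPM in MC38 and 396 to 407 CPM in control. The 11 erythroid markers summed to 406 to 454 CPM in MC38 and 494 to 579.7 CPM in control. None of either list was called by edgeR (4 and 2 at an unadjusted p under 0.05). The megakaryocyte markers were mixed, with 4 log2 fold changes positive and 5 negative. Every MC38 library was below both controls in 3 of them (Pf4, Vwf and Gp5) and above both in 2 (Ppbp and Gp1ba). Of the 10 tested erythroid markers 2 log2 fold changes were positive and 8 negative. The mast cell and basophil sum was set by Hdc: without it the other 10 genes summed to 48.8 to 69.6 CPM in MC38 and 131 to 151 CPM in control, and the median log2 fold change of the 8 tested genes was -0.64. The part of these lists in the Gata2 level was not tested.

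Tal1 and Lyl1 encode related helix-loop-helix proteins that take the same place in the complex. Lyl1 (chromosome 8, 84701457 to 84704715) was at 194, 190.4, 151 and 159 CPM in MC38 and at 204 and 206 CPM in control, so all MC38 libraries were below both controls, MC38 replicates 1 and 2 by little. The log2 fold change was -0.24 (SE 0.14, 95% interval -0.54 to 0.07, edgeR adjusted p = 0.402). Tal1 (chromosome 4, 115056426 to 115071755) was at 41.8, 53.3, 61.1 and 53.8 CPM in MC38 and at 72.3 and 55.5 CPM in control. MC38 replicate 3 stood between the controls and the other 3 MC38 libraries below them, and the log2 fold change was -0.28 (SE 0.19, 95% interval -0.72 to 0.15, edgeR adjusted p = 0.497). Lyl1 shares 4 exon bases with Nfix on the other strand, and reads there cannot be told apart.

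Per exon length Lyl1 was the more abundant of the pair in every library. The ratio of Tal1 to Lyl1 counts per kilobase was 0.0886, 0.115, 0.167 and 0.139 in MC38 and 0.146 and 0.111 in control. The control ratios lay inside the MC38 range. On the log2 scale the difference, MC38 minus control, was -0.04 (exact two-sided permutation p = 0.867 over 15 splits, adjusted p = 1 over 3 ratios). The smallest p that these splits allow is 0.0667, so no ratio could have passed. Leaving out MC38 replicate 1 or control replicate 1 turned the sign, to 0.12 and 0.16.

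Lmo2, the adaptor of the complex, was the most abundant of the factors. It was at 897, 913, 1056 and 970.1 CPM in MC38 and at 908 and 962 CPM in control, and the groups overlapped. The means were 959 ± 72.0 CPM in MC38 and 935 ± 38.4 CPM in control (SD, n = 4 and 2), a log2 fold change of 0.04 (SE 0.11, 95% interval -0.21 to 0.28, edgeR adjusted p = 0.905). This was the narrowest interval of the 10, from 0.864-fold to 1.22-fold. Its sign turned without MC38 replicate 3 or control replicate 1, at -0.02 and -0.0043, values close to 0.

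Erg and Fli1 encode ETS factors with closely related DNA-binding domains. Erg (chromosome 16, 95359169 to 95586593) was at 61.1, 65.6, 50.4 and 66.3 CPM in MC38 and at 39.5 and 57.1 CPM in control, with MC38 replicate 3 between the controls and the others above both. Its log2 fold change of 0.33 (SE 0.20, 95% interval -0.12 to 0.78, edgeR adjusted p = 0.430) was the highest of the 10, and it was 0.09 without control replicate 1. Fli1 (chromosome 9, 32422204 to 32542861) was at 164, 168, 237 and 243 CPM in MC38 and at 149 and 207 CPM in control. MC38 replicates 3 and 4 were above both controls and MC38 replicates 1 and 2 between them. The log2 fold change was 0.19 (95% interval -0.27 to 0.65, edgeR adjusted p = 0.697), and its sign turned without control replicate 1 (-0.03).

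The ratio of Erg to Fli1 counts per kilobase was 0.376, 0.392, 0.214 and 0.275 in MC38 and 0.266 and 0.277 in control. Fli1 was the more abundant in every library, and the ratio was highest in MC38 replicates 1 and 2. The log2 difference, MC38 minus control, was 0.17 (exact two-sided permutation p = 0.733, adjusted p = 1). Both genes are also used by endothelial cells, whose defining marker Cdh5 (VE-cadherin) was at 0.807 to 1.78 CPM in MC38 and at 0 and 2.31 CPM in control. The 9 endothelial and stromal markers summed to 192 to 257 CPM in MC38 and 198 to 202 CPM in control, and none was called by edgeR. The 3 at an unadjusted p under 0.05 were all higher in MC38, every MC38 library being above both controls. They were Pecam1 (57.4 CPM in MC38, 42.7 CPM in control), Emcn (21.5 and 10.8 CPM) and Cxcl12 (11.6 and 4.84 CPM). Over the list, 6 log2 fold changes were positive and 3 negative. The part of this list in the Erg and Fli1 levels was not tested.

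Runx1, the DNA-binding partner of CBFB, was at 133, 117, 100.4 and 119.6 CPM in MC38 and at 108 and 87.7 CPM in control. Only MC38 replicate 3 stood between the controls, the other 3 being above both. The log2 fold change was 0.27 (SE 0.15, 95% interval -0.08 to 0.61, edgeR adjusted p = 0.412), and it stayed positive in all 13 alternatives, from 0.13 to 0.42. Runx1 shares 106 exon bases with an antisense gene, whose reads cannot be told apart where the strand setting is not given. Cbfb itself was at 64.6, 78.6, 117 and 120 CPM in MC38 and at 65.7 and 77.6 CPM in control (edgeR adjusted p = 0.448).

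Hlf marks the most primitive HSCs and was at 163, 162, 197 and 208 CPM in MC38 and at 169 and 207 CPM in control. The groups overlapped, with 1 MC38 library above both controls and 2 below, and the log2 fold change was -0.04 (SE 0.15, 95% interval -0.38 to 0.29, edgeR adjusted p = 0.919). Mecom (chromosome 3, 29951296 to 30548008) was at 41.1, 44.6, 54.7 and 67.8 CPM in MC38 and at 38.6 and 68.4 CPM in control. All 4 MC38 libraries stood between the controls, which differed 1.77-fold from each other, and the log2 fold change was -0.04 (SE 0.27, edgeR adjusted p = 0.958). Without control replicate 1 its log2 fold change was -0.39 and without control replicate 2 it was 0.44. It was 0.06 without MC38 replicate 1 and 0.03 without MC38 replicate 2, so the sign rested on which libraries were used.

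Prdm16 was the least abundant factor, at 33.3, 23.3, 21.4 and 35.2 CPM in MC38 and at 31.1 and 26.5 CPM in control. MC38 replicates 1 and 4 were above both controls and replicates 2 and 3 below both, a 1.64-fold range, and the log2 fold change was -0.03 (SE 0.26, 95% interval -0.60 to 0.55, edgeR adjusted p = 0.972). Behind these values stood 341 to 495 counts in MC38 and 321 and 370 in control. The ratio of Mecom to Prdm16 counts per kilobase was 0.926, 1.44, 1.92 and 1.44 in MC38 and 0.930 and 1.94 in control (log2 difference 0.04, exact two-sided permutation p = 1, adjusted p = 1). The ratio differed more within each group than between the group means. Mecom shares 81 exon bases with an antisense gene and Prdm16 shares 109 with a gene that had no count, and gene counts do not separate the long Mecom transcripts with a PR domain from the short ones without it.

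**Figure D4:**
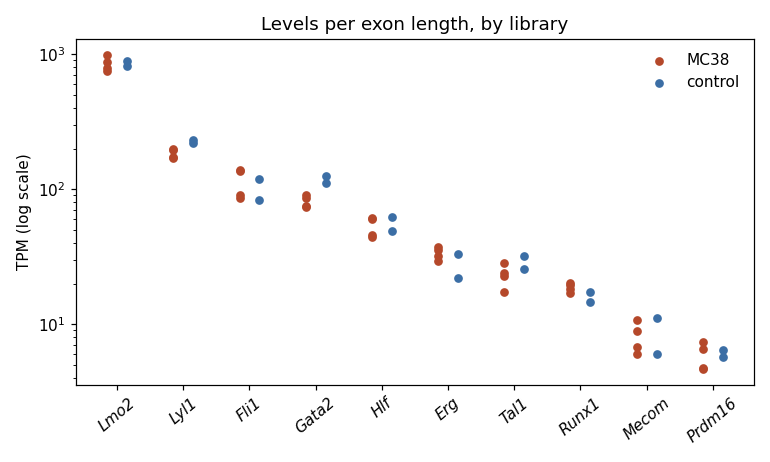
Level of each factor per exon length in TPM, on a log axis, with a point per library (MC38 left, control right of each tick). The order runs from Lmo2, at 755 to 992 TPM in the 6 libraries, to Prdm16, at 4.67 to 7.43 TPM.

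Levels of different genes were compared per exon length, in TPM (counts per kilobase scaled to a common total), and averaged over the 6 libraries they ran from 855 TPM for Lmo2 to 5.92 TPM for Prdm16. Lmo2 averaged 856 ± 105 TPM in MC38 and 855 ± 55.1 TPM in control, and over the 6 libraries it ranked 173 among 27728 annotated genes. Lyl1 followed at 185 ± 15.0 TPM in MC38 and 225 ± 7.05 TPM in control. Fli1 (113 ± 28.5 TPM in MC38, 101 ± 25.5 TPM in control) and Gata2 (81.4 ± 8.65 TPM in MC38, 118 ± 9.68 TPM in control) overlapped in range. Hlf was at 52.9 ± 9.02 TPM in MC38 and 55.8 ± 9.24 TPM in control. Erg, Tal1 and Runx1 came next, each overlapping its neighbour, with MC38 means of 33.8, 23.2 and 18.7 TPM and control means of 27.7, 28.8 and 16.0 TPM. Mecom (8.12 ± 2.14 TPM in MC38, 8.56 ± 3.56 TPM in control) and Prdm16 (5.83 ± 1.37 TPM in MC38, 6.10 ± 0.55 TPM in control) were lowest and overlapped. Over the 6 libraries the ranges of Lmo2 and Lyl1, Lyl1 and Fli1, Gata2 and Hlf, Hlf and Erg, and Runx1 and Mecom did not overlap. The length used matters for Runx1 and Mecom, whose joint exons (12.0 and 12.4 kb) are far longer than their longest transcripts (5.86 and 5.69 kb). With the longest transcript Runx1 moved above Erg and Tal1 in the order, and Gata2 above Fli1.

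**Figure D5:**
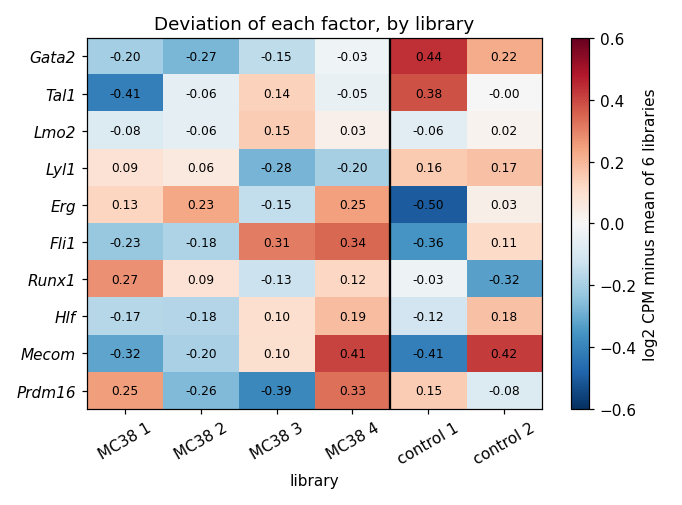
log2 CPM of each factor in each library minus its mean over the 6 libraries, with MC38 libraries left of the black line and control libraries right of it. Fli1, Hlf and Mecom are above their means in MC38 replicates 3 and 4 and control replicate 2 and below them in the other 3 libraries, across the groups.

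Libraries of the same group differed from each other in several factors, and this was not particular to the factors. Over the 7330 genes with a mean of at least 20 CPM, MC38 replicates 3 and 4 often stood apart from MC38 replicates 1 and 2. Both were above both of the latter in 31.9% of these genes and below both in 29.6%. The cause of this split was not tested. For Lmo2, Fli1, Hlf and Mecom the highest 3 libraries were MC38 replicates 3 and 4 and control replicate 2, a set that was highest in 8.83% of the 7330 genes with a mean of at least 20 CPM. Erg and Runx1 had their highest 3 libraries in MC38 replicates 1, 2 and 4, as did 5.40% of those genes. The share of mitochondrial counts was 3.14% and 2.88% in MC38 replicates 3 and 4, 2.01% and 2.31% in MC38 replicates 1 and 2, and 1.71% and 1.75% in the controls. The mitochondrial share was thus higher in all 4 MC38 libraries than in both controls, and highest in MC38 replicates 3 and 4. Its part in these levels and in the comparison of the groups was not tested. The coefficient of variation over the 4 MC38 libraries was highest for Prdm16 (24.5%), Mecom (23.0%), Fli1 (21.0%) and Tal1 (15.2%), and lowest for Gata2 (7.31%) and Lmo2 (7.50%), against a median of 14.4% over the 7330 genes.

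By mean absolute difference of centred log2 CPM over the 6 libraries, the genes most like each factor among 7275 candidates were Dpysl2 for Gata2 (0.029), Tpst2 for Tal1 (0.034), Rhoa for Lmo2 (0.024), Nedd8 for Lyl1 (0.021) and Tns1 for Erg (0.030). For Fli1 it was Cdkn1b (0.026), for Runx1 Apobec3 (0.030), for Hlf Tspyl1 (0.025), for Mecom Fmr1 (0.054) and for Prdm16 Mybl2 (0.064). Cdkn1b encodes the CDK inhibitor p27 and Mybl2 a MYB-family factor of dividing cells. The measure is over few libraries and was taken as the smallest of many.

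The proteins that work with these factors were described from lists of related genes. Of 19 complex partners and cofactors none was called by edgeR, 1 had an unadjusted p under 0.05, and the median log2 fold change was -0.09, with 13 negative and 6 positive. DESeq2 and limma-voom called none either. Crebbp, an acetyltransferase coactivator, had the smallest p (41.1 ± 7.66 CPM in MC38, 63.0 ± 13.3 CPM in control, edgeR adjusted p = 0.183). Zfpm1, the GATA cofactor FOG1, was at 62.6, 57.2, 37.1 and 42.6 CPM in MC38 and at 71.1 and 68.9 CPM in control (edgeR adjusted p = 0.288). Cbfa2t3, the corepressor ETO2 that binds the TAL1 complex, was at 209 ± 11.3 CPM in MC38 and 248 ± 8.85 CPM in control (edgeR adjusted p = 0.293). Ldb1, which bridges LMO2 complexes, was at 118, 120, 102 and 95.1 CPM in MC38 and at 126 and 136 CPM in control (edgeR adjusted p = 0.367). Over the 19 genes every MC38 library was below both controls in 5 (Ldb1, Cbfa2t3, Zfpm1, Crebbp and Ctbp1) and above both in 0. Of all tested genes 15.0% were separated in the lower direction. In the lists described next, the counts below and above were 0 and 3 for 20 relatives. They were 2 and 3 for 15 linked regulators, and 2 and 2 for 18 target and stem cell genes.

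Of 20 relatives of the factors from the same families none was called by edgeR and 2 had an unadjusted p under 0.05, with a median log2 fold change of 0.13. DESeq2 and limma-voom called none. Gata3, the GATA factor of T cells also found in HSCs, was at 86.7, 84.0, 78.3 and 73.4 CPM in MC38 and at 64.7 and 50.9 CPM in control (log2 fold change 0.48, edgeR adjusted p = 0.170). Ets2 was at 57.4 ± 3.87 CPM in MC38 and 41.6 ± 0.54 CPM in control (edgeR adjusted p = 0.176), and Prdm15 at 9.40 ± 3.66 CPM in MC38 and 4.71 ± 0.82 CPM in control (edgeR adjusted p = 0.302). Gata1, which takes over from Gata2 in red cell and platelet precursors, was at 14.3, 10.9, 18.8 and 24.3 CPM in MC38 and at 20.9 and 10.7 CPM in control (edgeR adjusted p = 0.921).

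Of 15 tested regulators linked to the factors, none was called by edgeR and 4 had an unadjusted p under 0.05 (median log2 fold change 0.14), while DESeq2 called 1 and limma-voom none. That gene was Ikzf2, the zinc finger factor Helios, at 48.5, 57.4, 74.1 and 66.1 CPM in MC38 and at 30.9 and 39.9 CPM in control (log2 fold change 0.80, edgeR adjusted p = 0.101, DESeq2 adjusted p = 0.0144). Klf1, the erythroid Krueppel-like factor, was at 24.4 to 28.3 CPM in MC38 and at 64.6 and 28.3 CPM in control, where 1 control library stood far from the rest (edgeR adjusted p = 0.193). Gfi1b, a repressor of the megakaryocyte and erythroid lineages, was at 41.4 ± 2.91 CPM in MC38 and 59.6 ± 16.2 CPM in control (edgeR adjusted p = 0.198).

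Of 18 tested target and stem cell genes none was called by edgeR, DESeq2 or limma-voom, none had an unadjusted p under 0.05, and the median log2 fold change was -0.05. The smallest p belonged to Mycn, a MYC-family factor (100.4 ± 17.3 CPM in MC38, 75.3 ± 11.2 CPM in control, edgeR adjusted p = 0.295). Adgrg1, the adhesion receptor GPR56 of HSCs, was at 780.5 ± 54.6 CPM in MC38 and 917 ± 1.41 CPM in control (edgeR adjusted p = 0.300). Gp1ba, a platelet glycoprotein, was at 7.30 ± 0.91 CPM in MC38 and 3.99 ± 0.89 CPM in control (edgeR adjusted p = 0.310).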

How the data were processed

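The authors deposited 1 table of whole-number read counts per Ensembl gene, with a column per library. The build was mm10, and the tools included HTSeq 0.10.0, STAR 2.6.1 and Trim Galore 0.5.0, per the submitters' processing notes. Neither the annotation release nor the strand setting or filters are named there. Low-input cDNA was amplified with 12 PCR cycles, per the labels' protocols, which mention no molecular identifiers. PCR copies may therefore be among the counts. Symbols and exon lengths came from GENCODE M21 (GRCm38), which named 27728 of the 28786 IDs, and promoter windows from RefSeq (GRCm38.p6).

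MC38 (n = 4) was compared with control replicates 1 and 2 in edgeR 4.0.16 under R 4.3.3, with TMM, filterByExpr, the robust quasi-likelihood test and adjustment over all 14226 genes. The common biological coefficient of variation was 0.366. CPM are counts over TMM-scaled totals, and TPM use the joint exon length. Standard errors were derived from the fold change and F statistic. The named genes were all 10 factors, the 3 of smallest p in each list of related genes and, of the marker lists, called genes. Added after their values were seen were Procr, Ly6a, Cd34, Flt3, Cdh5, Pecam1, Emcn, Cxcl12, Ldb1, Ctbp1, Cbfb and Gata1. So were Vwf, Cd27, Prtn3, Elane, Ctsg, Pf4, Gp5 and Ppbp. The factors and lists were chosen with earlier results of these data known. Replicate numbers were not taken as pairs. Alternatives were limma 3.58.1, DESeq2 1.42.0, RLE factors, no filter, all 7 columns, a composition filter, the replicate block and each library left out. On simulated counts for 14226 genes, edgeR recovered 57% of 2-fold and 98% of 4-fold changes in this comparison, with 12 false calls.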

Additional observations from a re-analysis of the deposited data

How the results depend on the processing

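The count of factors called was 0 in edgeR and became 1, Gata2, with all 7 columns (log2 fold change -0.49, adjusted p = 0.0106), with DESeq2 (-0.49, adjusted p = 0.00561) and with the replicate block (-0.57, adjusted p = 0.0161). It remained 0 with limma-voom, RLE size factors, no low-count filter (Gata2 adjusted p = 0.0501), without immunoglobulin and neutrophil marker genes and without any single library. The 7-column fit counts column 3 as independent, and the replicate block compares 2 pairs only, since MC38 replicates 3 and 4 have no partner in it. Same-numbered libraries had correlated deviations of 0.079 and -0.076, which cannot show or exclude pairing. Deviations of 2 controls from their own mean are mirror images, so each MC38 library has equal and opposite values for the 2 controls. The libraries were not paired because the labels do not tie same-numbered ones. Under the replicate block the sign turned for Lmo2 (-0.046) and Fli1 (-0.085). Without 1 library, log2 fold changes ran from -0.016 to 0.081 for Lmo2, -0.030 to 0.44 for Fli1, -0.18 to 0.11 for Hlf, -0.39 to 0.44 for Mecom and -0.14 to 0.095 for Prdm16, each crossing 0. The log2 difference of the Tal1 to Lyl1 ratio ran from -0.24 to 0.16 and that of Mecom to Prdm16 from -0.48 to 0.57. The signs of Gata2, Tal1, Lyl1, Erg and Runx1 held in all 13 alternatives.

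Over all genes, 148 were called higher in MC38 and 81 lower. The counts were 791 and 663 with all 7 columns, 626 and 396 with DESeq2, 302 and 202 with no low-count filter, 87 and 35 without immunoglobulin and neutrophil marker genes, and 269 and 190 with the replicate block. Without 1 library they ran from 44 to 259 and from 16 to 183. In the family list 2 genes, Gata3 and Ets2, were called with all 7 columns. In the list of linked regulators 1 gene was called with all 7 columns, DESeq2 and no filter (Ikzf2) and with the replicate block (Myb), and 0 to 1 without 1 library. With the longest transcript as length, MC38 levels were 98.9 TPM for Gata2, 149 for Lyl1, 29.0 for Erg, 30.9 for Runx1 and 14.3 for Mecom. The causes of these shifts were not tested. With 2 control libraries even 2-fold changes were often missed in the simulation, so smaller changes may be missed too at this spread.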
